A study of Rattus norvegicus with 94 samples.

Results

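The livers of male SD (Sprague-Dawley) rats that had received a single dose of clofibrate, a lipid-lowering fibrate drug, were compared 48 h after dosing with livers of rats given the vehicle alone. The comparison comprised 10 of the 94 arrays of the series, chosen by their titles: 5 arrays of the clofibrate 48 h treated group and 5 of the clofibrate 48 h vehicle group, with no array of pooled RNA. The treated rats were dosed with 1000 mg/kg clofibrate in 0.9% saline, and the vehicle rats with 0.9% saline alone. Both groups were killed 48 h after the dose, and total RNA of the whole liver was hybridised to Affymetrix rat genome arrays, 1 array per animal as far as the titles tell. The series as a whole also followed clofibrate at other times, and DEHP and VPA. Of its 94 arrays 76 were not labelled as pooled. The question here was which liver transcripts differed 48 h after clofibrate. The labels used here give no age. The arrays read whole liver, in which fewer cells of a type and less RNA per cell cannot be told apart.

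Clofibrate is hydrolysed in the body to clofibric acid, which activates PPARα, a nuclear receptor abundant in hepatocytes. PPARα binds DNA together with the retinoid X receptor and switches on genes for the uptake, activation and oxidation of fatty acids in peroxisomes and mitochondria. In rats and mice its activators enlarge the liver and multiply its peroxisomes. The receptor is also known to lower the expression of some genes for apolipoproteins, amino acid breakdown and acute-phase proteins.

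The deposited values were MAS 5.0 signals on a linear scale, set by the authors to a common target of 1500. A signal is thus a brightness and not a count of reads, and signals of different probe sets were not compared with each other. For lists of cell type markers signals were summed per array, so that the brightest members weigh most in a sum. Median signals of the 10 arrays lay between 211.6 and 273.3, and on each of them 33.2 to 37.5% of probe sets had a signal of at least 500. The defining hepatocyte transcripts were bright on all 10 arrays, with albumin (Alb) at 97492 to 166647 on treated and 113206 to 187464 on vehicle arrays. Control probe sets for Gapdh and actin read both ends of the transcript, and their 3'/5' ratio rises as RNA is degraded. On the log2 scale this ratio was 1.48, 0.70, 0.84, 0.88 and 2.40 on treated arrays 1 to 5 and 0.67, 1.34, 1.77, 2.57 and 2.49 on vehicle arrays 1 to 5. The groups overlapped, with treated replicate 5 and vehicle replicates 4 and 5 highest. These 3 arrays were also those deposited to 1 decimal. Scanner files put treated replicates 1, 3 and 5 and vehicle replicates 1 and 5 on 1 scan day, treated replicates 2 and 4 and vehicle replicates 2 and 4 on another, and vehicle replicate 3 alone on another. Treated replicates 1 to 3 were run on fluidics station 2, and all other arrays of the comparison on station 1. All 9 scanner files that named a condition matched the labels.

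Of 3616 probe sets tested, 263 (7.27%) were higher and 459 (12.7%) lower after clofibrate at an adjusted p under 0.05 (limma, Benjamini-Hochberg). Taken as 1 probe set per gene, the brightest, 143 of 2241 genes (6.38%) were higher and 289 (12.9%) lower, and the median log2 difference over these genes was -0.15. The 5 treated and 5 vehicle arrays did not overlap for 251 of these genes (11.2%). With scan day as a block 232 probe sets were higher and 381 lower, and with fluidics station as a block 176 and 225. Within the first scan day 121 were higher and 118 lower, within the second 110 and 92, and within station 1 140 and 135, from 4 to 7 arrays each. An adjusted p measures the spread between arrays, here estimated over all 26 individual clofibrate-set arrays. That was also so for the fits within scan days and station 1. With only the groups compared in the fit 479 probe sets were called.

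The largest rises were those of enzymes that cleave and oxidise fatty acyl-CoA. Acot1, a cytosolic thioesterase that frees fatty acids from coenzyme A, had signals of 38701, 43257, 48628, 32925 and 77687 on treated arrays 1 to 5, against 139, 16.1, 51.8, 29.5 and 13.1 on vehicle arrays 1 to 5. All 5 vehicle values lay under the floor of 150 to which low signals were set, so the rise was at least 307-fold (log2 difference 8.26 ± 0.33, SE, adjusted p = 1.88e-15, limma). No vehicle array came near any treated array. Acot2, its mitochondrial relative, had 1576, 8982, 9677, 4858 and 447 on treated and 208, 129, 64.3, 42.1 and 74.9 on vehicle arrays, a rise of at least 19.5-fold (4.29 ± 0.68, adjusted p = 5.87e-05). The treated values spread widely, lowest on replicates 5 and 1, which also had the highest 3'/5' ratios of that group. With the 3'/5' ratio in the model the log2 difference of Acot2 was 3.60 (adjusted p = 8.61e-07, limma). The part of RNA quality in that spread was not tested. Acot7, another thioesterase, was higher by 3.40-fold (1.77 ± 0.45, adjusted p = 0.00694), and all 3 tested thioesterases were thus called higher. Within the second scan day and within station 1 only 2 were. Acot7 had log2 differences of 0.64 and 1.775 there (adjusted p = 0.53 and 0.0771, limma).

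**Figure D1:**
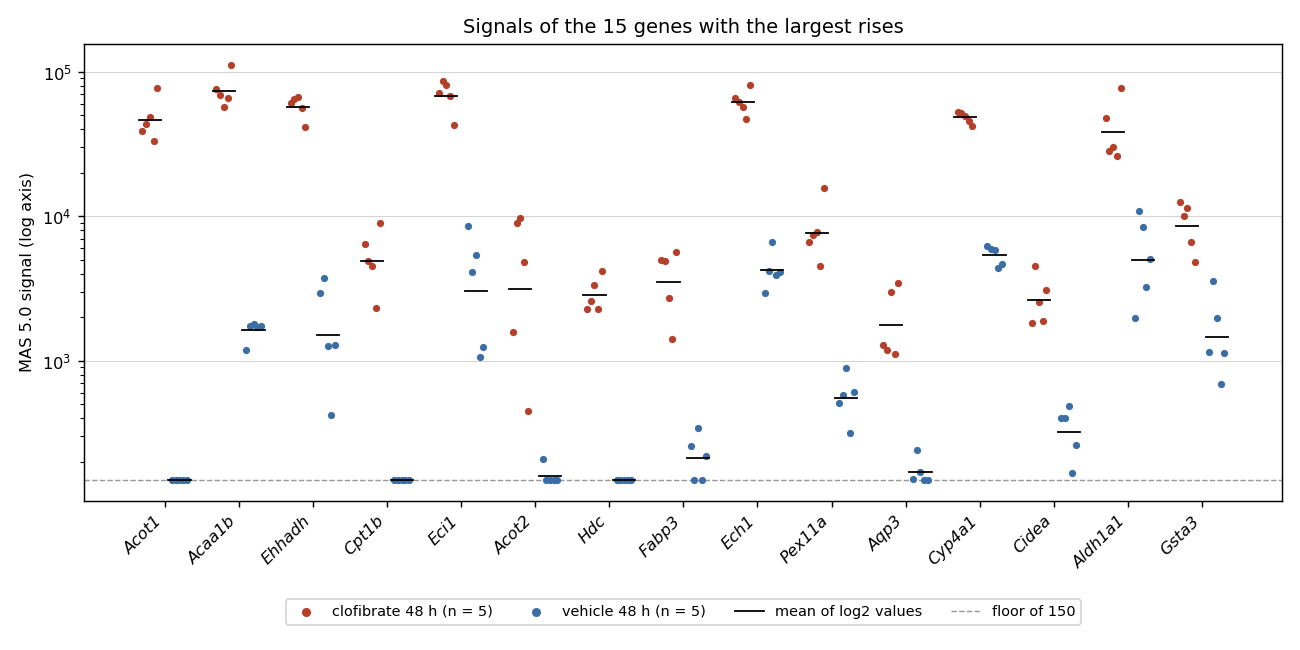
Signals of the 15 genes with the largest rises on a log axis, clofibrate 48 h arrays (red, left) and vehicle 48 h arrays (blue, right) of each gene, with 1 point per array, the mean of the log2 values as a bar and signals below 150 drawn at the dashed floor. The genes were chosen among those whose groups did not overlap, so the 5 treated points of each lie above its 5 vehicle points. Acot1, Cpt1b and Hdc have all vehicle points at the floor.

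In the list of peroxisomal beta-oxidation 9 of 12 genes tested rose and 1 fell, with a median log2 difference of 2.05, beside -0.15 over all genes. Acaa1b, the peroxisomal thiolase of the last step, had signals of 75548, 69188, 56802, 65704 and 111668 on treated and 1195, 1728, 1806, 1703 and 1753 on vehicle arrays, and rose 45.5-fold (5.51 ± 0.22, adjusted p = 1.88e-15). Ehhadh, the bifunctional enzyme of the hydration and dehydrogenation steps, had 60294, 64469, 66970.4, 56469 and 41191 on treated and 2951, 3748, 1268, 424 and 1295 on vehicle arrays, a 37.9-fold rise (5.25 ± 0.42, adjusted p = 1.78e-09). Vehicle replicate 4 was the lowest array of Ehhadh and vehicle replicate 2 the highest, so the spread lay mainly on the vehicle side. Ech1, a dienoyl-CoA isomerase, had 66066, 61717, 57209.5, 46893 and 80453 on treated and 2919, 4202, 6631, 3926 and 4143 on vehicle arrays (14.6-fold, 3.87 ± 0.20, adjusted p = 3.03e-13), again with a wide gap between the groups.

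Further peroxisomal steps moved less. Crot, the carnitine octanoyltransferase that passes shortened chains on, rose 5.84-fold, Hacl1, the lyase of alpha-oxidation, 5.47-fold, and Decr2, the peroxisomal dienoyl-CoA reductase, 3.13-fold, with adjusted p of 3.19e-05, 0.00109 and 4.22e-06. For these 3 genes the groups did not overlap. Abcd3, the fatty acyl transporter of the peroxisomal membrane, had 13031, 35134, 50957, 25889 and 9669.7 on treated and 9994, 6473, 4253, 3115 and 3759 on vehicle arrays and was 4.48-fold higher (adjusted p = 0.00151). Here vehicle replicate 1 exceeded treated replicate 5, and the lowest treated arrays were again replicates 5 and 1. Hsd17b4, the other bifunctional enzyme, passed at 0.0384 with all arrays but not without treated replicate 1, 2, 3 or 4 or vehicle replicate 3, 4 or 5 (adjusted p up to 0.137). Scp2, a sterol carrier that also contains a thiolase, was the 1 member lower, by 1.32-fold (adjusted p = 0.0274), a call that did not hold without treated replicate 3 or vehicle replicate 1, 4 or 5 (adjusted p up to 0.0761). Amacr (-0.83 ± 0.46) and Acox2 (0.00 ± 0.24), which serve branched chains and bile acid precursors, did not pass. Without any 1 array 8 or 9 of the 12 stayed higher, and 5, 8 and 6 were higher within the first scan day, the second and station 1. The number lower was 2 with the 3'/5' ratio in the model and 0 with scan day or station as a block.

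Among genes of peroxisome formation, membrane and side pathways 3 of 14 rose and 3 fell (21.4% each), with a median of -0.08. Over all genes 6.38% were higher and 12.9% lower. Pex11a, which drives peroxisome elongation and division, had 6654, 7383, 7717, 4529.7 and 15666 on treated and 511, 577, 887, 314 and 609 on vehicle arrays, and rose 14.0-fold (3.81 ± 0.35, adjusted p = 1.46e-08). Pex19, the carrier of membrane proteins into peroxisomes, rose 2.73-fold (adjusted p = 0.00116) and Agxt, a peroxisomal aminotransferase of glyoxylate, 1.49-fold (adjusted p = 0.00543), the second by 2 of its 6 tested probe sets. Mpv17l, a relative of the membrane protein Mpv17, had 218, 70.2, 44.9, 119 and 274 on treated arrays, against 443, 1091, 1087, 1683 and 1413 on vehicle arrays, at least 5.73-fold lower (-2.52 ± 0.41, adjusted p = 8.11e-05). Hao2, a peroxisomal hydroxyacid oxidase, was 2.38-fold lower (-1.25 ± 0.22, adjusted p = 0.000233), and its groups did not overlap. Catalase (Cat), at a log2 difference of -0.52 ± 0.25 (adjusted p = 0.157), did not pass, nor did Pex2, Pex5, Pex6 or Pex14, at -0.12 to 0.19.

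In mitochondrial beta-oxidation 14 of 19 genes tested rose and 0 fell, with a median of 1.34. Entry of acyl chains into the mitochondrion uses carnitine. Slc22a5, the carnitine transporter of the cell membrane, rose 3.22-fold, Cpt1a, the liver form of the outer carnitine palmitoyltransferase, 2.94-fold, the translocase Slc25a20 4.05-fold and the inner transferase Cpt2 2.74-fold, with adjusted p of 0.0037, 6.75e-05, 1.34e-06 and 2.01e-05. Cpt1b, the form of muscle and heart, had 6375, 4859.8, 4511, 2308 and 8972 on treated and 48.3, 52.8, 34.0, 56.1 and 57.4 on vehicle arrays, at least 32.8-fold higher (5.04 ± 0.26, adjusted p = 3.47e-13). Its 5 vehicle values were all under the floor and its 5 treated values far above it. The liver form Cpt1a averaged 10197 ± 3060.0 on treated and 3546 ± 1244 on vehicle arrays (SD, n = 5 each).

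The enzymes of the mitochondrial spiral rose by 2 to 4-fold in most cases. The dehydrogenases of very long, long and medium chains, Acadvl, Acadl and Acadm, rose 2.40-, 2.32- and 2.54-fold, and the subunits of the trifunctional protein, Hadha and Hadhb, 2.23- and 3.13-fold, with adjusted p of at most 0.000197. The thiolase Acaa2 had 72676, 71414, 73719.7, 64239 and 90630.0 on treated and 24298, 26651, 26143, 13645 and 20255 on vehicle arrays, a 3.43-fold rise (1.78 ± 0.16, adjusted p = 1.72e-08). Enzymes for unsaturated chains also rose: the dienoyl-CoA reductase Decr1 was 3.88-fold higher (adjusted p = 2.64e-07), and Eci1, the enoyl-CoA isomerase, had 71661, 85692, 80609.8, 67766 and 42822 on treated and 8494, 4131, 5423, 1065 and 1240.3 on vehicle arrays, 22.5-fold higher (4.49 ± 0.48, adjusted p = 2.56e-07). Eci1 was lowest on treated replicate 5 and on vehicle replicates 4 and 5, the arrays of highest 3'/5' ratio, and 2 of its 3 probe sets were called. Echs1 (-0.37 ± 0.21), Ivd (-0.28 ± 0.15), Acads (0.49 ± 0.35) and Etfdh (0.82 ± 0.47) did not pass, and Etfa, an electron carrier subunit, passed at 0.0453 but not without treated replicate 1, 2, 3 or 4 or vehicle replicate 2, 3, 4 or 5 (up to 0.139). Leaving out any 1 array kept 13 or 14 calls, and 12 genes were higher within each scan day and within station 1.

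**Figure D2:**
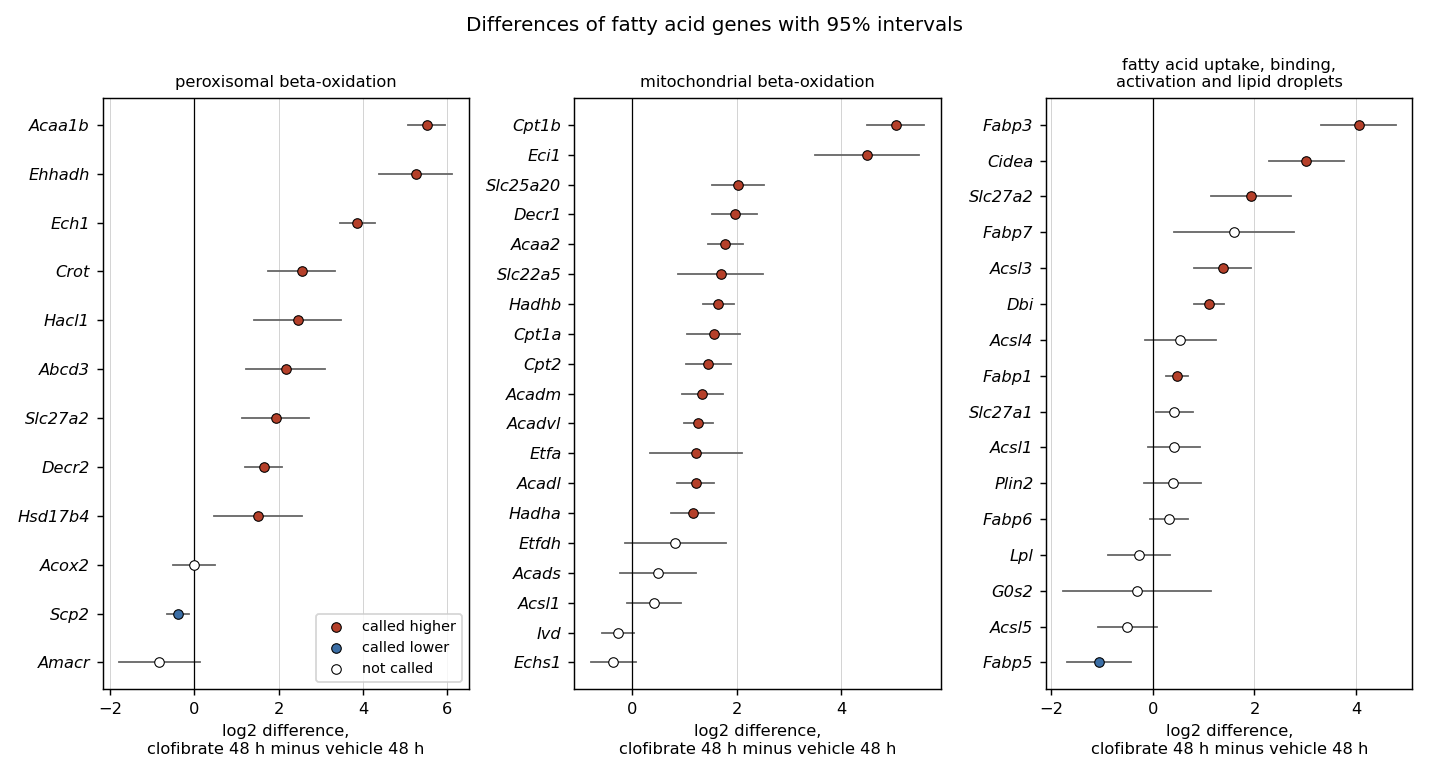
Log2 differences, clofibrate 48 h minus vehicle 48 h, of the genes of 3 fatty acid lists with 95% confidence intervals (lines), filled red where called higher, blue where called lower and open where not called. Most members of both oxidation lists lie to the right of 0, and the list of uptake, binding and activation is mixed.

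Uptake, binding and storage were mixed, with 6 of 16 genes higher, 1 lower and a median of 0.44. Fabp3, the fatty acid-binding protein of heart and muscle, had 5017, 4918, 2721, 1418 and 5696 on treated and 257, 62.4, 341, 120.0 and 219.7 on vehicle arrays, at least 16.6-fold higher (4.05 ± 0.36, adjusted p = 8.24e-09). Fabp1, the liver form, averaged 92404 ± 11167 on treated and 66568 ± 4453 on vehicle arrays (SD, n = 5 each), and rose 1.38-fold (adjusted p = 0.00239). Cidea, a lipid droplet protein of brown fat, had 1820.1, 4503, 2556, 1882 and 3084 on treated and 399.6, 403, 489.9, 167 and 261 on vehicle arrays, an 8.12-fold rise (3.02 ± 0.36, adjusted p = 1.14e-06). Slc27a2, which takes up fatty acids and couples them to coenzyme A and is also counted in the peroxisomal list, rose 3.81-fold, the acyl-CoA-binding protein Dbi 2.15-fold and the synthetase Acsl3 2.59-fold, with adjusted p of 0.000823, 4.22e-06 and 0.00094. Vehicle replicate 1 of Slc27a2, at 22821, exceeded treated replicate 5, at 20798. Acsl1, the main liver synthetase, was not called (0.41 ± 0.25, adjusted p = 0.266), nor was the droplet coat protein Plin2 (0.39 ± 0.27, adjusted p = 0.339). Fabp5, the epidermal form, was 2.10-fold lower (adjusted p = 0.0156), a call lost without treated replicate 3 or vehicle replicate 4 (up to 0.0603). With the 3'/5' ratio in the model 9 were higher and 2 lower, and with station as a block 6 and 0.

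PPARα and the retinoid X receptor bind a direct repeat of a hexamer with 1 base between its copies, and promoters of the fatty acid genes were searched for AGGTCA, any 1 base and AGGTCA again, on both strands, with up to 2 mismatched letters in the 12 fixed ones. The search used the RefSeq windows of 250 bases before to 50 after each gene's start in the GRCr8 build. Of 29 windows found for genes called higher in the 6 fatty acid lists 6 held a match (20.7%), and of 23 windows of list members not called higher 2 did (8.70%), beside 3.77% of all 33469 windows. None of the 13 windows of the 15 largest rises held one, and a window without a match says only that the letters are not in it. The matches lay in Fabp1, Acadvl, Slc27a2, Slc25a20, Etfa and Por, and they describe letters, not bound sites. The bases before the start are printed for 3 of them, since these windows hold the repeat among genes that rose, with the match in capitals and the strand of the gene. The match of Fabp1 begins 77 bases before the start, that of Acadvl 17 and that of Slc27a2 76, with 1, 1 and 2 mismatched letters. Those of Fabp1 and Slc27a2 are on the opposite strand.
Fabp1, chr4:104749090-104749339, plus strand: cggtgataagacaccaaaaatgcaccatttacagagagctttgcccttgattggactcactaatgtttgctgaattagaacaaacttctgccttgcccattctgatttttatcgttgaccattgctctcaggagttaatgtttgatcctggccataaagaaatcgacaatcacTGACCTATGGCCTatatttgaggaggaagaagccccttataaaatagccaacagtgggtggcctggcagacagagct
Acadvl, chr10:55236706-55236955, minus strand: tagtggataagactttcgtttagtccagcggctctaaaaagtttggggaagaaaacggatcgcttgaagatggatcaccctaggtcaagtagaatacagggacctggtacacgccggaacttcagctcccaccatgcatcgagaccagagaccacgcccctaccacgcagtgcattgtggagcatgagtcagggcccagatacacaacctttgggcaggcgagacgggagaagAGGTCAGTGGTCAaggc
Slc27a2, chr3:134257851-134258100, plus strand: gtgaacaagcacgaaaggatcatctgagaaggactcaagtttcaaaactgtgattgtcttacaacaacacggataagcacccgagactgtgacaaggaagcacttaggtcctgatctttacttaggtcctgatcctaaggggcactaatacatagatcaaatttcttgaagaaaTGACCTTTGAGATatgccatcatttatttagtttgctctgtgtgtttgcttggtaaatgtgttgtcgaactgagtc

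Omega-hydroxylation and drug metabolism were split. Cyp4a1, a fatty acid omega-hydroxylase, had 52850.3, 51782, 49527, 45905 and 42170.0 on treated and 6231, 5951, 5797, 4352 and 4699 on vehicle arrays, a 9.02-fold rise (3.17 ± 0.17, adjusted p = 3.47e-13). Por, the reductase that feeds electrons to cytochromes P450, rose 1.61-fold (adjusted p = 0.0156). Cyp4f1, which acts on eicosanoids in rats, was 1.81-fold lower (adjusted p = 0.00165), and the list as a whole had 2 of 8 higher and 3 lower. Of 3 lower Cyp4 genes only Cyp4f1 passed without each single array: without treated replicate 2, 3 or 4 or vehicle replicate 5 it was the 1 lower call. With scan day or station as a block 1 of the 8 was lower, and within the scan days and station 1 1, 0 and 1 were. With station as a block and within each scan day and station 1 only 1 was higher. Por was not called in any of these fits (adjusted p up to 0.184, limma). Probe sets of the Cyp4a, Cyp2b, Sult2a and Gst families can detect more than 1 transcript, so a symbol there may stand for its relatives.

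Among phase I enzymes 9 of 30 rose and 6 fell, with a median of 0.26, and within the scan days and station 1 4, 2 and 5 were higher and 2, 3 and 3 lower. Aldh1a1, which oxidises retinaldehyde and other aldehydes, had 48138, 28205, 30262, 26208 and 77088 on treated and 1985, 10875, 8385, 3221 and 5046 on vehicle arrays, 7.76-fold higher (2.96 ± 0.39, adjusted p = 4.65e-06). Cyp2b2, a classical phenobarbital-inducible enzyme, had 83409.5, 68381, 102937, 64235 and 120473 on treated and 7382, 20494, 22010.0, 9018 and 24992 on vehicle arrays, 5.71-fold higher (2.51 ± 0.57, adjusted p = 0.00271). Its relative Cyp2b15 rose 2.89-fold (adjusted p = 0.000202), and the steroid-inducible Cyp3a23-3a1 2.54-fold by all 4 of its probe sets (adjusted p = 0.00236). Alas1, the rate-limiting enzyme of heme synthesis, rose 3.02-fold (adjusted p = 0.00164).

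Among enzymes that fell, Fmo1, a flavin monooxygenase, had 2306, 817, 822, 926 and 979.5 on treated arrays, against 5556, 6494, 6548, 7868 and 10197 on vehicle arrays (6.70-fold lower, -2.74 ± 0.28, adjusted p = 8.84e-08). Cyp1a2, which metabolises caffeine, had 1260.1, 2241, 2770.2, 2368 and 1159 on treated and 15887, 8329.5, 5709.9, 6492 and 7764 on vehicle arrays, 4.46-fold lower (-2.16 ± 0.30, adjusted p = 1.23e-05), by 1 of its 3 tested probe sets. Treated replicate 1 was the highest treated array of Fmo1 and the second lowest of Cyp1a2. Cyp2b3 was 2.09-fold lower (adjusted p = 0.00455) although its relatives Cyp2b2 and Cyp2b15 rose. Of 22 glutathione transferases and conjugating enzymes 1 rose (4.55%) and 3 fell (13.6%), near the shares over all genes of 6.38% and 12.9%. The number higher was 2 or 3 without treated replicate 1 or 5 or vehicle replicate 1, and the number lower was 1 without vehicle replicate 5. With station as a block 0 were lower, and with the 3'/5' ratio in the model 2 were higher. The riser was Gsta3, with 12557, 10075, 11426, 6633 and 4837 on treated and 1143, 3544, 1989.5, 695 and 1139 on vehicle arrays (5.92-fold, 2.57 ± 0.39, adjusted p = 3.83e-05), called by all 3 of its probe sets. Of 20 NRF2 targets and antioxidant enzymes 2 rose (10%, beside 6.38% over all genes). They were Me1 (4.12-fold, adjusted p = 0.000882), which makes NADPH from malate, and Gpx4 (1.63-fold, adjusted p = 0.0146). The NRF2 targets Nqo1 (-1.01 ± 0.48), Hmox1 (0.61 ± 0.33) and Txnrd1 (0.27 ± 0.23) did not pass. Without treated replicate 5 or vehicle replicate 3, with scan day as a block, or with the 3'/5' ratio in the model, which also gave 1 lower, the count of this list was 4. Within the scan days and station 1 it was 2, 0 and 1. Gpx4 was at a log2 difference of 0.24 within the second scan day (adjusted p = 0.6, limma).

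Hdc, the enzyme that makes histamine from histidine, had 2270.0, 2579, 3355, 2279 and 4166 on treated and 36.2, 43.0, 42.2, 102 and 46.2 on vehicle arrays, at least 19.0-fold higher (4.25 ± 0.20, adjusted p = 3.89e-14), with all vehicle arrays under the floor. Aqp3, a water and glycerol channel, had 1288, 1193, 3005, 1109.8 and 3451 on treated and 153, 243, 171, 63.1 and 82.3 on vehicle arrays, at least 10.4-fold higher (3.38 ± 0.28, adjusted p = 2.35e-09). The treated values fell into 2 levels, with replicates 3 and 5 more than 2-fold above the other three. Aqp7, the glycerol channel of fat cells, was at least 3.60-fold higher (adjusted p = 0.0012), with 1 vehicle array above the lowest treated one. Ucp2, a mitochondrial uncoupling protein, rose 1.69-fold (adjusted p = 0.000761) and Pdk4, which switches off pyruvate dehydrogenase, did not pass (1.52 ± 0.58, adjusted p = 0.0659). In the ketone body list Acat1, the mitochondrial thiolase that forms acetoacetyl-CoA on the way to ketone bodies, rose 3.79-fold (adjusted p = 9.5e-07).

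Several lists of cellular machinery leaned upward by small steps, beside 6.38% higher and 12.9% lower over all genes. In the proteasome and ubiquitin list 9 of 32 rose and 0 fell, with a median of 0.44. The subunits Psmb3, Psma4 and Psma6 rose 2.06-, 1.82- and 1.46-fold, with adjusted p of 6.66e-05, 0.002 and 0.00721 and groups that did not overlap. Without treated replicate 2 or 4 or vehicle replicate 4 the count was 5, and within the scan days and station 1 it was 1, 2 and 4. It was 5 with station as a block, and with the 3'/5' ratio in the model 19 were higher and 3 lower. Of 16 heat shock proteins 4 rose and 0 fell (median 0.45), and 3 of the 4 act in mitochondria: the chaperonins Hspe1 (1.96-fold, adjusted p = 3.43e-05) and Hspd1 (1.71-fold, adjusted p = 0.00011) and the import factor Grpel1 (1.63-fold, adjusted p = 0.000823). The fourth was Hspb1 (2.08-fold, adjusted p = 0.00654). Hspe1 had 28367, 30088, 26709, 26146 and 26289 on treated and 13439, 10911, 14651, 16419 and 15387 on vehicle arrays, with no overlap. Of 52 subunits and partners of oxidative phosphorylation 6 rose (11.5%) and 1 fell (1.92%), with a median of 0.15. The rises included Ndufa3 (2.49-fold, adjusted p = 0.000554) and Ndufab1 (1.96-fold, adjusted p = 0.000782) of complex I and Cyc1 (1.77-fold, adjusted p = 0.00239) of complex III. Within the scan days and station 1 the numbers higher were 4, 0 and 2. With the 3'/5' ratio in the model 13 were higher. The number lower was 0 without treated replicate 2 or 4 or vehicle replicate 4 or 5 and 2 without vehicle replicate 2.

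**Figure D3:**
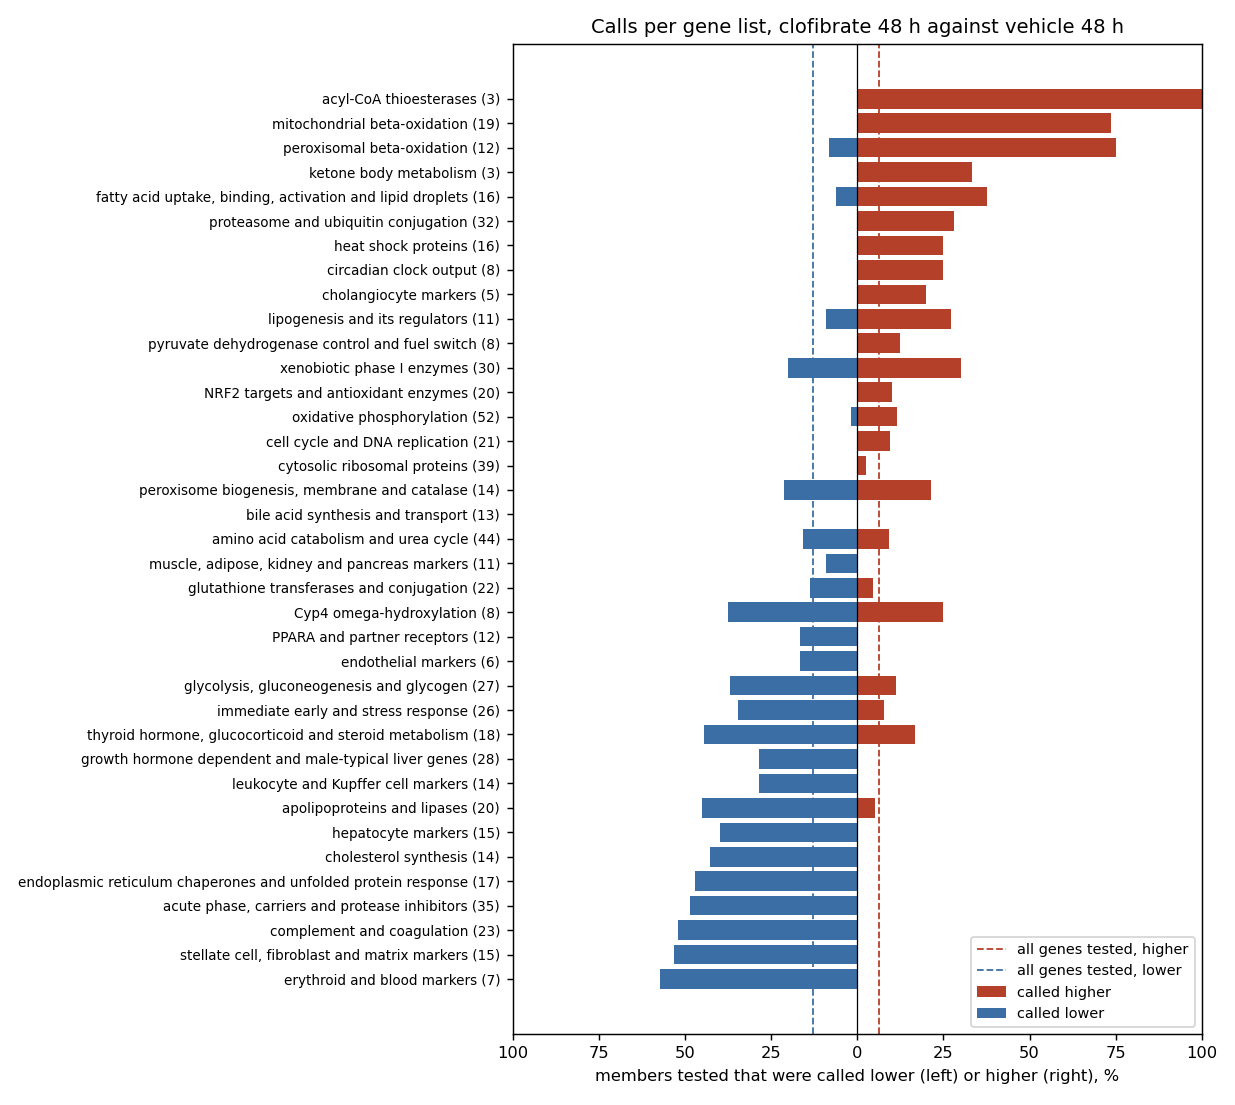
Percent of tested members called lower (blue, left) or higher (red, right) in each gene list, clofibrate 48 h against vehicle 48 h, with the number tested in brackets and the shares over all genes tested as dashed lines. The thioesterases (3 of 3) and the mitochondrial and peroxisomal oxidation lists, with 73.7 and 75.0% higher, stand at the top, and the lists of plasma proteins, matrix and blood markers at the bottom.

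Among genes whose groups did not overlap and whose mean signal reached 1000, the 15 largest falls ran from -3.17 ± 0.42 for Dusp1 to -1.71 ± 0.20 for Csrp1 on the log2 scale. Dio1, the deiodinase that converts thyroxine to its active form, had 1615, 925, 1018, 1703 and 2459.5 on treated and 9042, 5679, 11784, 17042 and 17883 on vehicle arrays, 7.80-fold lower (-2.96 ± 0.29, adjusted p = 4.68e-08). Hsd11b1, which regenerates active glucocorticoid, had 2975, 1373, 1452, 4153 and 2485 on treated and 22867, 13709, 6892, 9554 and 11690.2 on vehicle arrays, 5.24-fold lower (-2.39 ± 0.36, adjusted p = 3.67e-05). In neither gene did the groups overlap, which was a condition of that choice. In the list of thyroid hormone, glucocorticoid and steroid metabolism 3 of 18 rose and 8 fell, with a median of -0.50. Within the scan days and station 1 the numbers lower were 3, 3 and 6. The hydroxysteroid sulfotransferases Sult2a2 and Sult2a1 were 3.51- and 2.76-fold lower (adjusted p = 0.00325 and 0.0106), the thyroid hormone carrier Ttr 1.77-fold (adjusted p = 3.61e-05) and the glucocorticoid receptor Nr3c1 2.25-fold (adjusted p = 0.0121). Hsd17b10, a mitochondrial dehydrogenase that acts on steroids and short acyl-CoA, was among the 3 that rose (1.77-fold, adjusted p = 0.00028). Among PPARα and its partner receptors 0 of 12 rose and 2 fell, near the shares over all genes. The 2 that fell were Nr3c1 and the relative Ppard (1.89-fold, adjusted p = 0.00145). Rxra (0.03 ± 0.50) and Hnf4a (0.23 ± 0.17) were not called.

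**Figure D4:**
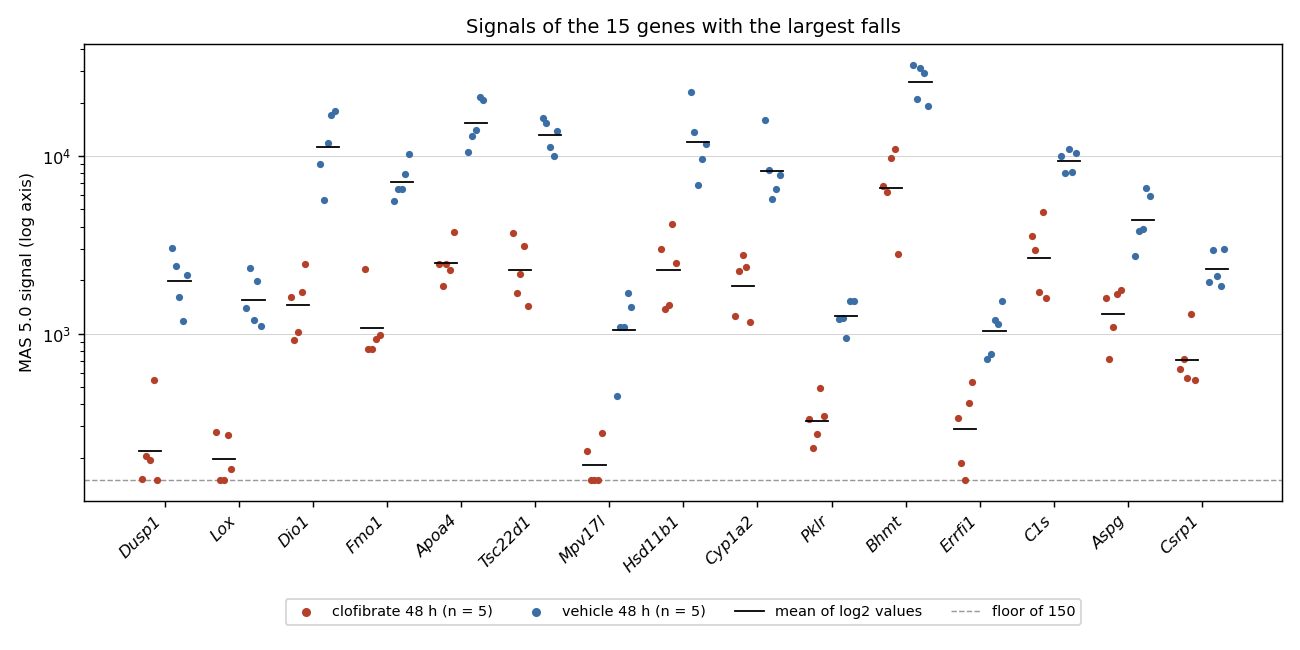
Signals of the 15 genes with the largest falls on a log axis, clofibrate 48 h arrays (red, left) and vehicle 48 h arrays (blue, right) of each gene, with 1 point per array, the mean of the log2 values as a bar and signals below 150 drawn at the dashed floor. The genes were chosen among those whose groups did not overlap, so every treated point lies below every vehicle point of its gene. Dusp1, Lox, Mpv17l and Errfi1 have treated points at the floor.

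Apoa4, an apolipoprotein of chylomicrons and high-density lipoprotein, had 2455, 1849, 2474, 2286 and 3727 on treated and 10482, 12917, 13987, 21531 and 20699 on vehicle arrays, 6.15-fold lower (-2.62 ± 0.28, adjusted p = 2.57e-07). Apoa1, the main protein of high-density lipoprotein, had 31692, 29307, 21836, 29788 and 24166 on treated and 42037, 38852, 77522, 84749.5 and 51568 on vehicle arrays, 2.07-fold lower (-1.05 ± 0.18, adjusted p = 0.000195). In the list of apolipoproteins and lipases 1 of 20 rose and 9 fell, with a median of -0.44, and without treated replicate 2 the number lower was 5. It was 4 with fluidics station as a block and 3, 4 and 2 within the scan days and station 1. The riser was Mgll, the monoglyceride lipase, with 3533, 2189, 3660.4, 1999.9 and 4838 on treated and 796, 1013, 710.3, 993 and 974 on vehicle arrays (3.46-fold, 1.79 ± 0.25, adjusted p = 1.06e-05). Apoc3 (-0.44 ± 0.19, adjusted p = 0.106), Apoa2 (-0.41 ± 0.21) and Apoe (-0.31 ± 0.21) did not pass. In cholesterol synthesis 0 of 14 rose and 6 fell, with a median of -0.72. Dhcr7 of the last step was 1.95-fold lower, the sterol oxidase Msmo1 1.92-fold and the mevalonate pathway decarboxylase Mvd 1.80-fold, with adjusted p of 0.00109, 0.0121 and 0.0133. The number lower was 3 without treated replicate 1, 2 or 3 or vehicle replicate 3 or 4, 1 with station as a block, and 0, 1 and 0 within the scan days and station 1. None of 13 genes of bile acid synthesis and transport was called by limma, with 1 at an unadjusted p under 0.05. With the 3'/5' ratio in the model 1 of them was higher and 4 lower.

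In the list of glycolysis, gluconeogenesis and glycogen 3 of 27 genes rose and 10 fell, with a median of -0.46, beside 6.38% higher and 12.9% lower over all genes. Within the scan days and station 1 the numbers lower were 4, 3 and 6. Pklr, the liver pyruvate kinase, had 329, 226, 273, 493 and 343 on treated and 1205, 1229, 943, 1519.5 and 1516 on vehicle arrays, 3.93-fold lower (-1.97 ± 0.25, adjusted p = 3.39e-06). Tkfc, the triokinase of fructose breakdown, was 2.94-fold lower (adjusted p = 1.11e-05), the glucose 6-phosphate transporter Slc37a4 3.01-fold (adjusted p = 0.000639), the glucose transporter Slc2a2 2.54-fold (adjusted p = 0.000781) and liver glycogen phosphorylase Pygl 1.72-fold (adjusted p = 0.00308). Tkfc had 1665, 1804, 1742, 1449 and 1627 on treated and 4295, 3626, 4613, 6243 and 5994 on vehicle arrays. Aqp3, Aqp7 and the glycerol 3-phosphate dehydrogenase Gpd1 (5.90-fold, adjusted p = 0.0141) were the 3 that rose, whereas the channel Aqp8 was among those that fell (2.13-fold, adjusted p = 0.0118). In the list of lipogenesis and its regulators 3 of 11 genes rose (27.3%) and 1 fell (9.09%), with a median of 0.01. The number higher was 1 without treated replicate 3 or with station as a block, and 2, 0 and 1 within the scan days and station 1. Fasn, the fatty acid synthase, was not called (-0.13 ± 0.41, adjusted p = 0.855).

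Plasma proteins made by the liver were lower across lists. Of 35 acute-phase proteins, carriers and protease inhibitors 0 rose and 17 fell, with a median of -0.56, and of 23 complement and coagulation genes 0 rose and 12 fell, with a median of -0.54. Without any 1 array the numbers lower stayed between 16 and 19 and between 9 and 13, and within the scan days and station 1 they were 8, 8 and 13 and 7, 4 and 8. Ahsg, or fetuin, had 48332, 54702, 52893, 62660.4 and 29286 on treated and 99055, 110801, 118428, 120407 and 111812 on vehicle arrays, 2.33-fold lower (-1.22 ± 0.16, adjusted p = 4.63e-06). The kininogen Kng2 was 2.18-fold lower, the pentraxin Apcs 1.98-fold, and the serpins Serpina3m and Serpina3c 2.45- and 1.79-fold, with adjusted p of 2.38e-06, 3.67e-05, 0.000299 and 0.000123. C1s, the serine protease of the first complement component, had 3528, 2958, 1719, 4806 and 1582 on treated and 9963, 8030.5, 10946, 8146 and 10333 on vehicle arrays, 3.52-fold lower (-1.82 ± 0.27, adjusted p = 2.5e-05). Plasma prekallikrein Klkb1 was 3.18-fold lower, C1r 2.39-fold, vitronectin Vtn 1.97-fold and C3 1.88-fold, with adjusted p of 1.11e-06, 0.000761, 4.44e-05 and 6.51e-06. Albumin (-0.25 ± 0.19), Serpina1 (-0.32 ± 0.20), Orm1 (-0.18 ± 0.20) and the carrier of retinol Rbp4 (0.22 ± 0.24) were not called. The hepatocyte marker list, much of it made of the same secreted proteins, had 6 of 15 lower and 0 higher, and 10 lower with the 3'/5' ratio in the model.

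Chaperones of the endoplasmic reticulum, through which secreted proteins pass, were also lower, 8 of 17 with 0 higher and a median of -0.52. The disulfide isomerase P4hb was 1.78-fold lower, the translocon proteins Ssr3 and Sec61b 1.63- and 1.42-fold and the chaperone Hspa5 1.43-fold, with adjusted p of 0.00147, 0.00168, 0.0037 and 0.00775. Their groups did not overlap, but the number lower in the list was 5 without treated replicate 3 or with station as a block and 2, 0 and 2 within the scan days and station 1.

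Male-typical and growth hormone dependent genes were lower in 8 of 28 cases, with 0 higher and a median of -0.39. The number lower was 5 without treated replicate 3 and 3 with station as a block. Within the scan days and station 1 4, 2 and 4 were lower. Apart from Fmo1 and Hao2 these included Cyp2c11, the main male-specific cytochrome P450 of rat liver, which was 1.60-fold lower (adjusted p = 0.00191), by 1 of 3 probe sets. In amino acid metabolism 4 of 44 rose and 7 fell, near the shares over all genes, and 2 rose without treated replicate 1 or vehicle replicate 4. With the 3'/5' ratio in the model 5 were higher and 13 lower, with station as a block 1 was higher, and within the scan days and station 1 2, 1 and 1 were higher and 3, 1 and 6 lower. Bhmt, which remethylates homocysteine with betaine, had 6817, 6284, 9799.6, 10942 and 2789.6 on treated and 32638, 20865, 31111, 29298 and 19189 on vehicle arrays, 3.92-fold lower (-1.97 ± 0.27, adjusted p = 7.17e-06). Cps1, the first enzyme of the urea cycle, was 1.94-fold lower by 1 of its 2 probe sets and glutamine synthetase Glul 2.27-fold by 2 of 4, with adjusted p of 0.000781 and 0.00446. Aspg, an asparaginase outside the lists, had 1588, 715, 1085, 1678 and 1760.1 on treated and 2747, 3787, 3896, 6600.2 and 5937 on vehicle arrays, 3.37-fold lower (-1.75 ± 0.33, adjusted p = 0.000537).

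Regulators of signalling made up several of the other large falls. Dusp1, a phosphatase that switches off MAP kinases, had 151, 205, 195, 544 and 116 on treated and 3043, 2389, 1614, 1179 and 2124 on vehicle arrays, at least 9.02-fold lower (-3.17 ± 0.42, adjusted p = 5.56e-06). All 3 of its tested probe sets were called lower, but the brightest of them, which stands for Dusp1 in its list, not without treated replicate 2 or 3 or vehicle replicate 1 or 2 (adjusted p up to 0.0577). Tsc22d1, a transcriptional regulator, had 3693, 1687, 2165, 3111 and 1437 on treated and 16361, 15321, 11221, 9958 and 13736 on vehicle arrays, 5.77-fold lower (-2.53 ± 0.29, adjusted p = 5.72e-07). Errfi1, an inhibitor of the EGF receptor, was at least 3.56-fold lower (-1.83 ± 0.34, adjusted p = 0.00045), the related phosphatase Dusp6 2.67-fold (adjusted p = 0.000978) and Csrp1, a LIM-domain protein, 3.27-fold (-1.71 ± 0.20, adjusted p = 1.23e-06). In the list of immediate early and stress genes 2 of 26 rose (7.69%, near the 6.38% over all genes) and 9 fell (34.6%, beside 12.9%), with a median of -0.37. The number lower was 4 without treated replicate 3 or vehicle replicate 5, 3 with station as a block, and 5, 1 and 2 within the scan days and station 1. The number higher was 0 with station as a block and 1 without treated replicate 1, 2, 3 or 4 or vehicle replicate 3 or 4. Fos (-0.21 ± 0.21), Jun (0.14 ± 0.46), Egr1 (-0.10 ± 0.66) and Myc (-0.16 ± 0.44) were not called. Of 21 cell cycle genes 2 rose (9.52%, beside 6.38% over all genes), Tubb5 (1.68-fold, adjusted p = 0.00437) and Cdc20 (at least 2.10-fold, adjusted p = 0.0368). Tubb5 is a tubulin and Cdc20 an activator of the anaphase complex. Without treated replicate 2, 3, 4 or 5 or vehicle replicate 3, 4 or 5 Cdc20 lost its call (adjusted p up to 0.127). Pcna (0.45 ± 0.32), Ccnb1 (-0.17 ± 0.40) and Top2a (0.64 ± 0.40) did not pass. Of 8 clock outputs 2 rose (25%, beside 6.38% over all genes), the clock repressor Nr1d1 (2.12-fold, adjusted p = 0.000802) and Alas1. Without treated replicate 5 the count was 4, and within the scan days and station 1 it was 1, 0 and 2. With station as a block 2 were higher and 1 lower.

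Markers of other cell types differed from list to list. In the list of stellate cells, fibroblasts and matrix, 15 of 29 genes on the array passed the filter on low signals, and 8 of these fell and 0 rose, with a median of -0.70. Their summed signal was 37759 to 48819 on treated and 49117 to 71819 on vehicle arrays, ranges that lay close but did not overlap. Summed signals of the hepatocyte markers did not overlap either, at 618464 to 729601 on treated and 850937 to 1034740 on vehicle arrays. Lox, the oxidase that crosslinks collagen and elastin, had 278, 89.9, 123, 268 and 173 on treated and 1399, 2347, 1198, 1977 and 1108 on vehicle arrays, at least 7.84-fold lower (-2.97 ± 0.84, adjusted p = 0.0149), by 1 of 2 probe sets. Elastin (Eln) was at least 2.72-fold and biglycan (Bgn) 1.86-fold lower, with adjusted p of 0.0012 and 0.00166, while Col1a1 (-0.60 ± 0.25), Col3a1 (-0.20 ± 0.55) and Sparc (-0.08 ± 0.27) were not called. The count was 5 without treated replicate 1, 2 or 3, 4 without vehicle replicate 5, 1, 2 and 0 within the scan days and station 1, and 4 after quantile normalization. With scan day or station as a block it was 5 or 4.

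Of 14 leukocyte and Kupffer cell markers tested, out of 29 on the array, 4 fell and 0 rose (median -0.51), with summed signals of 16578 to 27544 on treated and 27772 to 41266 on vehicle arrays. C1qc, a complement component made by macrophages, was 1.58-fold lower (adjusted p = 0.00139), and it was 1 of 1 or 2 calls without treated replicate 2, 3 or 4 or vehicle replicate 3, 4 or 5. With each array centred on its median, or with station as a block, 1 leukocyte marker was lower, and 0, 0 and 1 were within the scan days and station 1. Of 7 erythroid and blood markers 4 fell (median -0.77), with sums of 34854 to 45311 on treated and 59959 to 75389 on vehicle arrays. The beta-globins Hbb and Hbb-b1 were 1.73- and 1.71-fold lower (adjusted p = 0.00164 and 0.00246). Without treated replicate 1, under either other scaling and with station as a block, the erythroid count was 2, and within the scan days and station 1 it was 0. Of 6 endothelial markers (13 on the array) Lyve1 was called lower (16.7%, beside 12.9% over all genes), with sums of 3303 to 4465 on treated and 4880.2 to 5693 on vehicle arrays. That call was lost without treated replicate 3 or 5 or vehicle replicate 1, 3, 4 or 5 (adjusted p up to 0.106), and 2 markers were lower without treated replicate 1 or with the 3'/5' ratio in the model. Of 11 markers of muscle, fat, kidney and pancreas Cfd was called lower, but not without treated replicate 3 or 4 or vehicle replicate 3, 4 or 5 (adjusted p up to 0.0838). With the 3'/5' ratio in the model 2 of the 11 were lower, with station as a block 0, and the share of 1 in 11 lies near that over all genes. Among 5 cholangiocyte markers Krt8, a keratin that hepatocytes also make, rose 1.68-fold (adjusted p = 0.000824). The part of cell makeup in the falls of secreted proteins was not tested.

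By the probe sets shown, all 30 genes of the largest rises and falls kept their call without any 1 of the 10 arrays, and with the 3'/5' ratio, scan day or station in the model. These genes were chosen for a call and for groups that did not overlap, so their kept calls were partly set by the choice. Within each scan day and within station 1 all 30 kept their direction, as groups without overlap must, and 27 their call. The exceptions were Aspg, Lox and Mpv17l within the first day, C1s, Errfi1 and Lox within the second, and Aspg, Errfi1 and Lox within station 1. Lox also lost its call with no filter on low signals (adjusted p = 0.0505) and without the arrays deposited to 1 decimal (adjusted p = 0.0743).

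The same clofibrate dose was also examined 168 h after dosing in other rats, with 5 treated arrays and 5 arrays of their own vehicle group. There limma called 0 of 3616 probe sets (0%), with 78 at an unadjusted p under 0.05. The difference between the 48 h and 168 h effects was called for 213 probe sets (5.89%), 107 with a higher and 106 with a lower difference at 48 h. All 15 of the largest rises differed between the times, and 13 of the 15 largest falls. These genes were chosen by their large 48 h differences, which are part of this contrast. Their counts were thus partly set by the choice. Acaa1b had a log2 difference of 5.51 ± 0.22 at 48 h and 0.14 ± 0.22 at 168 h, apart by 5.37 ± 0.30 (adjusted p = 4.7e-12). Cyp4a1 had 3.17 ± 0.17 and -0.13 ± 0.17 at these times, apart by 3.30 ± 0.24 (adjusted p = 4.58e-10), and Dio1 -2.96 ± 0.29 and -0.05 ± 0.29, apart by -2.92 ± 0.41 (adjusted p = 3.13e-05). Cidea kept the largest positive difference of the 15 rises at 168 h, 0.95 ± 0.36, and still differed from 48 h by 2.07 ± 0.51 (adjusted p = 0.0126). Dusp1 was the exception with -3.17 ± 0.42 at 48 h and -1.61 ± 0.42 at 168 h, a difference of -1.56 ± 0.59 that did not pass (adjusted p = 0.124). For Lox it did not pass either (-2.43 ± 1.19, adjusted p = 0.247). Each of the 28 called differences kept its call without any 1 array and under each alternative that was run.

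DEHP, a plasticizer whose metabolite also activates PPARα, was given to other rats at 20 g/kg in distilled water, with 5 treated and 5 vehicle arrays at 48 h. Clofibrate 48 h and DEHP 48 h each have their own vehicle group, and their doses differ, so that the comparison is between these 2 regimens. The difference of the effects was called for 93 of 4503 probe sets (2.07%), 50 higher and 43 lower after clofibrate, and for 9 of the 30 largest changes. Those 30 were chosen by their clofibrate difference, which is part of this contrast. The count of 93 was 55 without clofibrate treated replicate 2, 198 without clofibrate treated replicate 5, 181, 49 and 60 without clofibrate vehicle replicate 1, 4 or 5, and 47 without DEHP vehicle replicate 1. Fabp3 rose after clofibrate (4.05 ± 0.36) and had -0.20 ± 0.29 after DEHP, apart by 4.25 ± 0.41 (adjusted p = 2.02e-11). Cpt1b had 5.04 ± 0.26 and 2.03 ± 0.27, apart by 3.01 ± 0.39 (adjusted p = 2.16e-07), and Aqp3 3.38 ± 0.28 and 0.51 ± 0.36, apart by 2.88 ± 0.51 (adjusted p = 0.000346). Since vehicle arrays of these 3 genes lay at the floor, the sizes are set in part by it. Cidea had 3.02 ± 0.36 and 1.44 ± 0.26 (apart by 1.58 ± 0.37, adjusted p = 0.0118), and Aspg -1.75 ± 0.33 and -0.24 ± 0.25 (apart by -1.51 ± 0.35, adjusted p = 0.0095). Without the arrays deposited to 1 decimal neither was called (adjusted p = 0.111 for Cidea and 0.0574 for Aspg), nor was Cidea in a fit of only the groups compared (0.0825).

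Ehhadh, Mpv17l, Bhmt and Csrp1 were also called, at differences of 1.62 ± 0.44, -1.86 ± 0.50, -1.15 ± 0.30 and -1.19 ± 0.30 (adjusted p = 0.0318, 0.0287, 0.0266 and 0.0218), and each of these lost its call without some single arrays. For Ehhadh these were clofibrate treated replicate 2 or 3, clofibrate vehicle replicate 3, 4 or 5, DEHP treated replicate 5 or DEHP vehicle replicate 1, with adjusted p of up to 0.138. For Mpv17l they were clofibrate treated replicate 2 or 4, clofibrate vehicle replicate 4 or 5 or DEHP vehicle replicate 1, 4 or 5 (up to 0.083). For Bhmt they were clofibrate treated replicate 2 or 5, clofibrate vehicle replicate 3 or 4, DEHP treated replicate 2 or 4 or DEHP vehicle replicate 1 (up to 0.0741), and for Csrp1 clofibrate vehicle replicate 5 or DEHP vehicle replicate 1 (up to 0.0845). The other 21 genes were not called, among them Acot1 (8.26 ± 0.33 after clofibrate, 8.08 ± 0.35 after DEHP), Dio1 (-2.96 ± 0.29, -3.01 ± 0.23) and Cyp4a1 (3.17 ± 0.17, 2.89 ± 0.20). A missed call does not show that the effects were alike: the difference for Acot1 was 0.19 ± 0.50. The DEHP arrays had lower 3'/5' ratios, 0.30 ± 0.09 in treated and 0.29 ± 0.09 in vehicle rats, than the clofibrate arrays, 1.26 ± 0.70 in treated and 1.77 ± 0.80 in vehicle rats (SD, n = 5 each). With the 3'/5' ratio in the model the difference of the effects was called for 154 probe sets. How much of the differences the ratio accounts for was not tested.

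**Figure D5:**
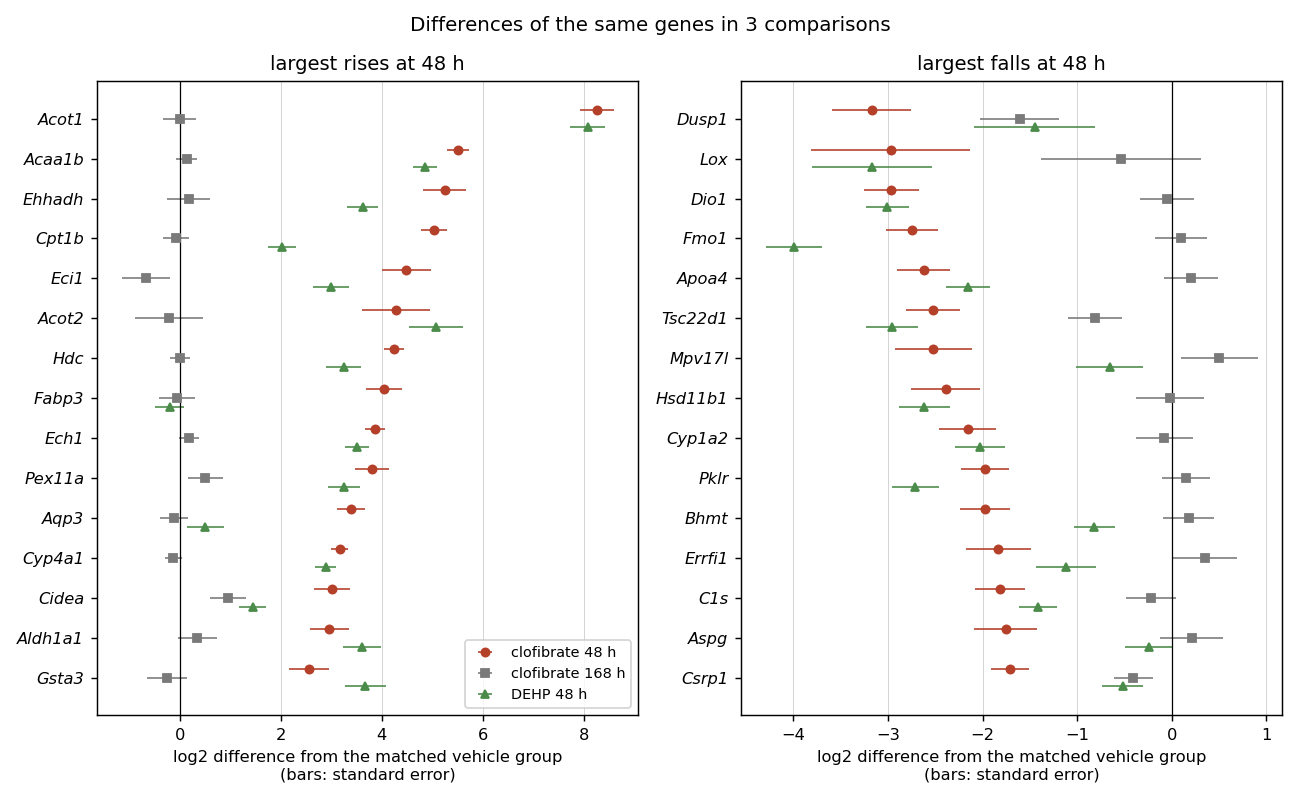
Log2 differences from the matched vehicle group for the 15 largest rises and the 15 largest falls, with standard errors as bars: clofibrate 48 h (red circles), clofibrate 168 h (grey squares) and DEHP 48 h (green triangles). At 168 h the rises lie near 0, between -0.67 and 0.95, and the DEHP points of all genes but Fabp3 lie on the same side of 0 as the clofibrate 48 h points.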

How the data were processed

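Individual male SD rats dosed with clofibrate (5 arrays) or vehicle (5 arrays) and killed 48 h later were compared by GEO titles. Per the labels' protocols, the authors labelled about 10 µg of total liver RNA, extracted with RNA STAT-60, and computed MAS 5.0 signals (Affymetrix Microarray Suite) with global scaling to 1500; each deposited value is an intensity on a linear scale. The labels give no separate cultures or batches beyond this; scan day and fluidics station came from the deposited scanner files, whose other contents were not used. Whether arrays of a group came from separate animals rests on their titles, so p-values measure only the spread between the arrays in the fit.

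Signals under 150 were set to 150 and log2 was taken. After removal of 59 control probe sets, the 3616 whose mean reached 500 in at least 1 of the 6 clofibrate-set groups were tested with limma 3.58.1 in R 4.3.3 (lmFit over the 26 individual clofibrate-set arrays, eBayes with trend, Benjamini-Hochberg, adjusted p under 0.05). The comparison with DEHP used all 76 individual arrays. A fold is the ratio of the groups' geometric means after the floor, written as at least where the lower group had arrays at the floor. The script was tested on simulated data. Of 8799 probe sets 7018 had 1 gene symbol, 308 several and 1473 none, from the platform annotation given; a gene was shown by its brightest tested probe set. The number of arrays limits the precision. Promoter sequences are RefSeq's, build GRCr8.

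The members and the 37 gene lists were chosen with earlier results of these data known. Named were the 15 largest rises and 15 largest falls with no overlap between groups and a mean of 1000 or more in the higher group, up to 6 called members of smallest adjusted p from each list, and members that were not called. For the largest changes the gene is shown by the brightest probe set that passes those criteria. Chosen after their values were seen were Abcd3, Hacl1, Hsd17b4, Scp2, Cpt1a, Cpt2, Slc22a5, Slc25a20, Acadl, Acadm, Hadha, Etfa, Fabp5, Cyp2b2, Cyp2b3, Cyp3a23-3a1, Sult2a1, Gpd1, Pygl, Aqp8 and Serpina3m. Alternatives covered the floor, the filter, the normalization, the samples in the fit, the replicate number, scan day or 3'/5' ratio in the model, array weights and each left-out array. Those on fluidics station and within scan days were added after seeing the data.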

Additional observations from a re-analysis of the deposited data

Results flagged for a closer look

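Within single groups of 5 arrays, 17 of 291 tested sets of signals (5.84%) had 1 array farther from the rest than Dixon's 95% limit allows, where chance gives about 5%. Distances were taken on log2 signals after the floor, whereas the values printed here are signals before it. Among treated arrays, replicate 1 was lowest for Adh4 (983) and highest for Cyp4f4 (5243) and Fmo1 (2306). Crot was highest in treated replicate 2 (9343), Dusp1 highest in treated replicate 4 (544) and Hpx lowest in treated replicate 5 (42369.9). Vehicle replicate 1 accounted for 6 of the 17 values. It was lowest for Acaa1b (1195), Me1 (335), Msmo1 (4747) and Pdia6 (13093) and highest for Acot2 (208) and Nat1 (600.2). In vehicle replicate 2 Aqp3 (243) was highest and Nat2 (4557) lowest. At the floor were 4 vehicle arrays of Acot2, 2 vehicle arrays of Aqp3 and 1 treated array of Dusp1. Flags of these genes thus depend on the floor. Fabp1 was highest in vehicle replicate 3 (74326) and Ssr3 in vehicle replicate 4 (8424), and Ucp2 was lowest in vehicle replicate 5 (2283). The cause of none of these was tested.

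The effect of clofibrate differed between 48 h and 168 h for 213 probe sets in all and for 28 of the 30 genes of largest change (limma, interaction contrast, 48 h effect minus 168 h effect on the log2 scale). The 30 genes were chosen by their 48 h differences, so the count of 28 was partly set by that choice. For the rises the differences were 8.26 for Acot1, 5.37 for Acaa1b, 5.07 for Ehhadh, 5.11 for Cpt1b, 5.16 for Eci1, 4.49 for Acot2, 4.25 for Hdc, 4.11 for Fabp3, 3.69 for Ech1, 3.49 for Aqp3, 3.30 for Pex11a, 3.30 for Cyp4a1, 2.81 for Gsta3, 2.61 for Aldh1a1 and 2.07 for Cidea. For the falls they were -3.02 for Mpv17l, -2.92 for Dio1, -2.84 for Fmo1, -2.83 for Apoa4, -2.37 for Hsd11b1, -2.18 for Errfi1, -2.15 for Bhmt, -2.13 for Pklr, -2.08 for Cyp1a2, -1.97 for Aspg, -1.72 for Tsc22d1, -1.60 for C1s and -1.30 for Csrp1. Differences of Acot1 and Hdc equal their 48 h values because all of their 168 h arrays lay at or under the floor.

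The effects of clofibrate and of DEHP at 48 h, each against its own vehicle group, differed for 93 probe sets in all (limma, interaction contrast, clofibrate effect minus DEHP effect on the log2 scale). Among the genes of largest change the differences were 4.25 for Fabp3, 3.01 for Cpt1b, 2.88 for Aqp3, 1.62 for Ehhadh, 1.58 for Cidea, -1.86 for Mpv17l, -1.51 for Aspg, -1.19 for Csrp1 and -1.15 for Bhmt.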

How the results depend on the processing

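The count for clofibrate 48 h against vehicle, 722 probe sets, was 479 when only the groups compared were fitted and 1232 when all 18 groups were. It was 1379 with array weights, 1046 with the 3'/5' ratio in the model and 401 with fluidics station as a block. Within the first and second scan day it was 239 and 202 and within station 1 275, from fewer arrays in these 3. Without 1 array it was 529 to 852. The count for 48 h against 168 h, 213, was 616 with all 18 groups, 497 with the 3'/5' ratio in the model and 750 with array weights, and 170 to 293 without 1 array. The count for clofibrate against DEHP, 93, was 29 with only the groups compared, 34 with scan day as a block, 154 with the 3'/5' ratio, 685 with array weights and 49 without the arrays given to 1 decimal, and 47 to 198 without 1 array. The causes were not tested. With the replicate number as a replicate block the 3 counts were 661, 189 and 92. Arrays of the same number did not deviate together (r = -0.39, 0.30, -0.21, -0.46 and 0.55 for numbers 1 to 5), so the numbers were not taken as pairs. Settings that used fluidics station or 1 scan day were chosen after seeing the data. Centring each array on its median or quantile normalization moved the median over all genes by 0.04 and 0.07, with 44.4% and 43.9% of calls higher, beside 36.4%. None of 147 named probe sets, those of the largest changes and of smallest p in each list, reversed its direction in any of the 28 alternatives; the other genes named were not counted in this. Of the 147, 44 kept their call in all 28 and 114 without each single array, and of the 30 largest changes 25 and 30 did. The 147 were chosen by their calls, and the 30 also by groups without overlap, so these counts were partly set by the choice. Differences from DEHP for Ehhadh, Mpv17l, Bhmt and Csrp1 were also lost with scan day as a block, with only the groups compared and without the arrays given to 1 decimal. Genes with vehicle or treated signals under the floor have only a bound on their fold.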
